A study of Mus musculus with 31 samples.

Results

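Primary microglia lacking Cgas and WT (Cgas+/+) microglia were compared after both had been given tau fibrils. The comparison rests on 6 of the 31 libraries of the series, the 3 of tau-treated Cgas-/- cells and the 3 of tau-treated WT cells, and takes in every gene that passed a filter on low counts. Microglia were shaken off mixed glial cultures grown from the cortices of mouse pups at postnatal days 1 to 3, after granulocyte-macrophage colony-stimulating factor had been added to expand them. They were stimulated 24 h after plating with 0N4R tau fibrils, aggregates of a human tau isoform, at 2 µg/ml, and RNA was taken 6 h later. Microglia of both genotypes with vehicle, in 3 libraries each, serve below as the untreated background, and the series also holds HT-DNA-treated microglia and hippocampi, which are not described. The Cgas-/- cells lack the gene from birth and in every cell of the culture, so an effect of the loss before the fibrils were added cannot be told apart from one after it. The sources used here do not say whether the pups of the genotypes were littermates, how many pups went into a culture, or whether the libraries of a group came from separate cultures, so the p-values measure the spread between libraries, which may be technical.

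cGAS is a sensor of double-stranded DNA in the cytosol. When it binds DNA it makes the cyclic dinucleotide cGAMP, which activates STING, and STING recruits the kinase TBK1, which phosphorylates IRF3 and leads to the transcription of type I interferon (IFN). Secreted IFN acts through the receptor IFNAR on factors such as STAT2 and IRF9, which bind the IFN-stimulated response element (ISRE) in the promoters of many IFN-stimulated genes (ISGs), and STING also activates NF-kB, which drives inflammatory cytokines. In the brain the pathway is studied chiefly in microglia, the resident macrophages.

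Values below are normalized CPM, counts divided by the library size after TMM scaling, and a log2 fold change is that of Cgas-/- over WT cells, both under tau unless stated otherwise. Where values are set against each other, those of WT libraries 1 to 3 come first and those of Cgas-/- libraries 1 to 3 second. Cgas itself (ENSMUSG00000032344, chr9:78430526-78443237 in GRCm38) had 35.3, 33.0 and 33.7 normalized CPM in the WT and 7.45, 6.83 and 7.04 in the Cgas-/- libraries, a log2 fold change of -2.26 (SE 0.11, adjusted p = 4.25e-16). The Cgas-/- libraries thus kept 20.9% of the WT level, and all 3 lay below all WT libraries. The sample labels name a kit that reads the 3′ ends of transcripts and the deleted part of Cgas is not given, so these counts do not show whether an intact transcript was left. The libraries held 18834749 to 21452016 counts in the WT and 22335705 to 25174764 in the Cgas-/- group. Of the 12 microglial markers checked, each had a count in at least 1 library of both groups, though Siglech did not pass the filter on low counts. Their summed level was 8205 to 8309 normalized CPM in WT and 5094 to 5159 in Cgas-/- cells, which was lower in the Cgas-/- cells. In bulk libraries fewer cells of a type and less RNA per cell cannot be told apart.

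Under tau 1014 of 13675 genes tested (7.41%) were lower and 407 (2.98%) were higher in Cgas-/- than in WT microglia, counting those past a log2 fold change of 1 whose adjusted p was below 0.05. Without the limit on size, 3580 genes (26.2%) were lower and 3442 (25.2%) higher, and the fold change decides which of these are counted. The median over all genes tested was 0.0062 on the log2 scale. Genes that were lower lay in the ISGs, the GBP and IRG families of IFN-induced GTPases, the CXCR3-binding chemokines, CC chemokines, antigen presentation by MHC class I, complement and Fc receptors and the cell cycle. Genes that were higher were fewer and included Arg1, Ccl6, Cst7, H2-Ab1 and a set of early response genes. The plot of log2 fold changes by gene list shows these groups beside each other.

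**Figure D1:**
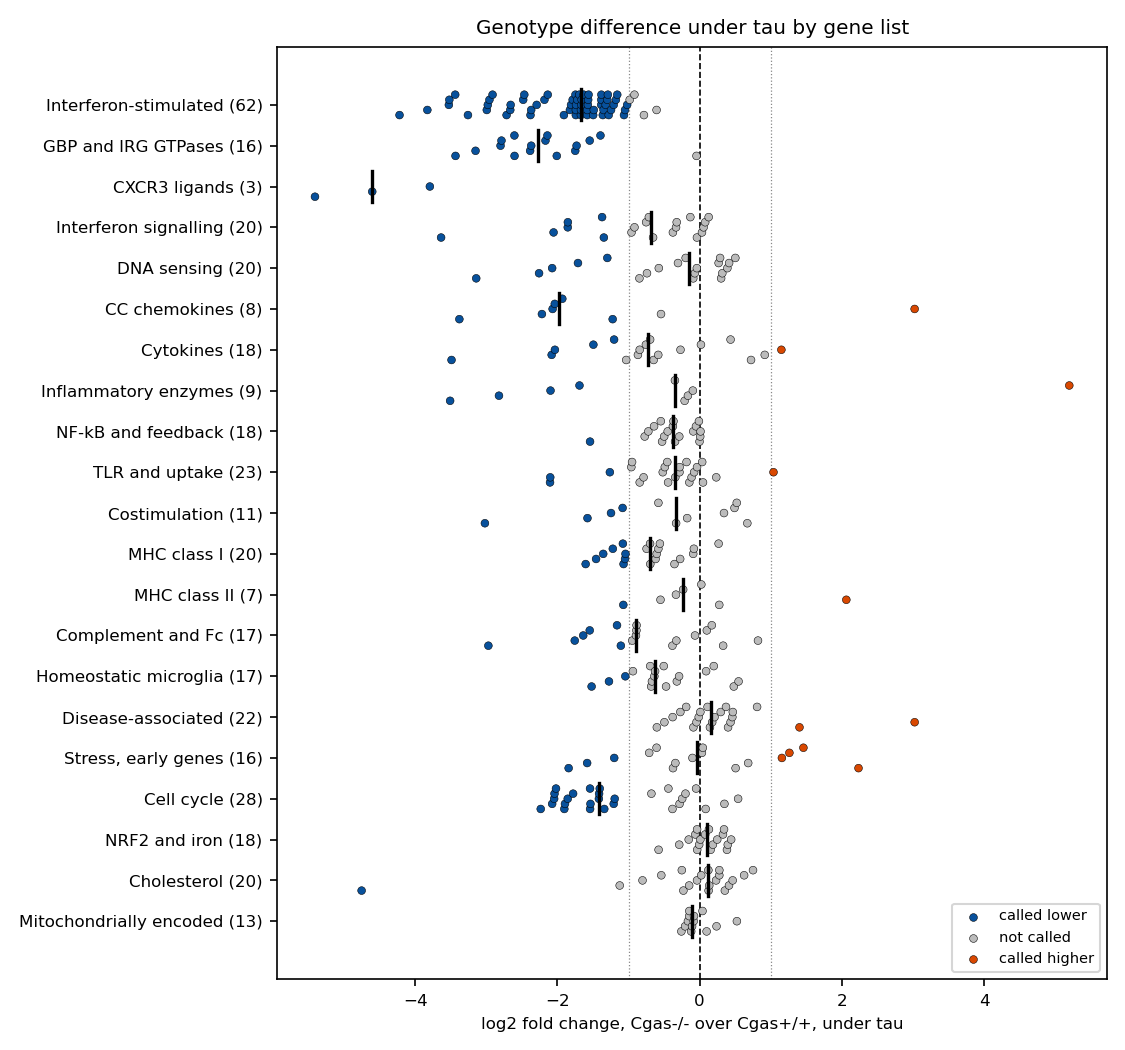
Log2 fold change of Cgas-/- over WT microglia under tau (horizontal axis) for the tested genes of 21 gene lists (1 row each). Blue points are genes called lower, orange points genes called higher and grey points genes not called, the black bar is the median of the list, the dashed line the median of all genes and the dotted lines a log2 fold change of 1 in either direction. All 62 ISG points lie left of the dashed line, whereas the mitochondrial, NRF2 and iron lists sit around it.

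The ISGs were the group with the most members lower. Of 63 genes on a list of core ISGs 62 were tested, and 58 were lower and none higher in Cgas-/- cells under tau, against a background of 7.41%. The 4 members not called, Trim30a (-0.92), Trim25 (-0.61), Slfn2 (-0.98) and Ifitm3 (-0.78), also had adjusted p-values under 0.05 in the lower direction but log2 fold changes short of 1, and were named after their values were seen. The list's median log2 fold change was -1.67, and for all 62 the 3 Cgas-/- libraries lay below the 3 WT libraries, where 29.1% of all genes did so. The direction of this list was known from earlier results of these data, and 6 of its members were named by the study for these samples, so its count is not independent evidence.

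The study chose 6 of the core ISGs as examples on these samples. Ddx60 had 205, 183 and 213 normalized CPM in the WT libraries and 40.0, 38.6 and 37.0 in the Cgas-/- libraries, and this helicase, which promotes antiviral signalling, fell by 2.38 (SE 0.11, adjusted p = 4.25e-16). Isg20 had 40.2, 36.6 and 41.0 normalized CPM in the WT libraries and 8.11, 7.04 and 6.22 in the Cgas-/- libraries, and this exonuclease, which degrades viral RNA, had a log2 fold change of -2.47 (SE 0.12, adjusted p = 1.33e-15). In both genes the Cgas-/- libraries sat well below the WT libraries, with no overlap. Rnf213 had 3245, 2824 and 3240 normalized CPM in the WT libraries and 969.7, 1050 and 906 in the Cgas-/- libraries, and this very large ubiquitin ligase fell by 1.67 (SE 0.091, adjusted p = 8.27e-15). Parp12, an antiviral ADP-ribosyltransferase, went from 382, 358 and 396 to 162, 154 and 148 (log2 -1.29, SE 0.072, adjusted p = 1.28e-14), and Sp100, a component of nuclear PML bodies, from 228, 211 and 246 to 97.7, 95.7 and 88.8 (log2 -1.28, SE 0.078, adjusted p = 8.34e-14). Ifi35, which encodes an IFN-induced protein that forms complexes in the cytosol, was nearest to the limit, with 97.9, 89.4 and 96.2 against 51.2, 45.0 and 40.9 normalized CPM (log2 -1.05, SE 0.075, adjusted p = 2.43e-12), and without Cgas-/- library 3 its log2 fold change was -0.97, short of 1. The groups did not overlap in any of these 6 genes.

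The plot of ISG levels shows how these levels stand beside those with vehicle. Under tau the Cgas-/- cells had 19.2% of the WT level of Ddx60 and 18.1% of that of Isg20, and with vehicle 9.05% and 16.0%. In untreated WT cells Ddx60 had 86.5, 46.5 and 64.8 normalized CPM, above tau-treated Cgas-/- cells. Over the list, 32 of 62 ISGs were lower in all 3 tau-treated Cgas-/- libraries than in all 3 untreated WT libraries, 30 overlapped with them and none were higher, where 27.2% of all genes were lower and 28.5% higher. For none of the 62 were all tau-treated Cgas-/- libraries above all untreated WT libraries.

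**Figure D2:**
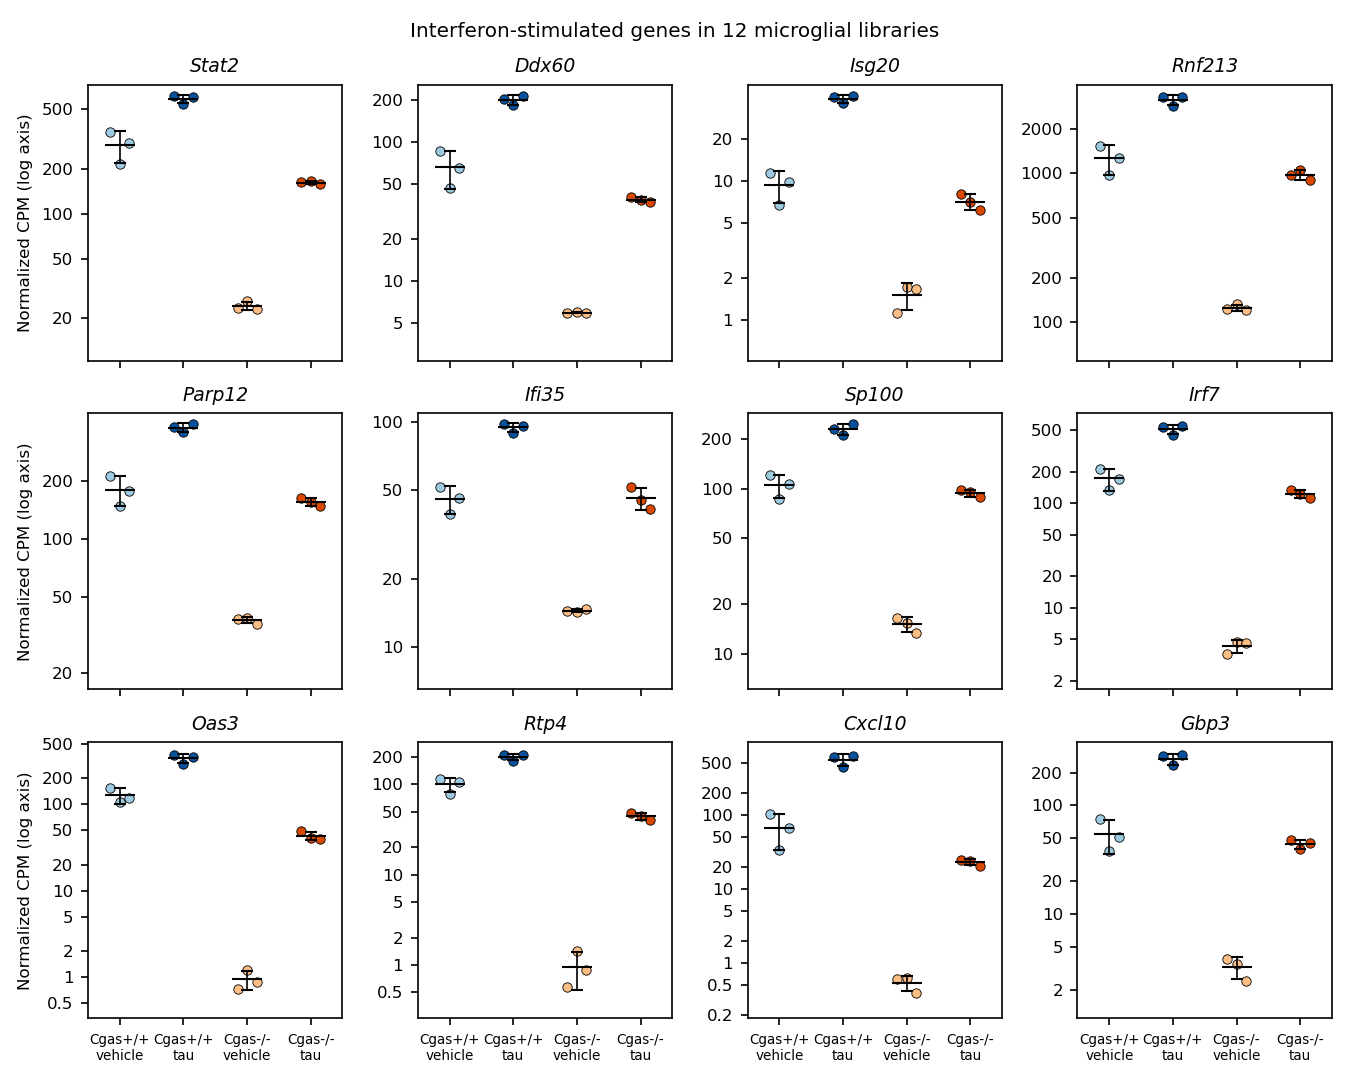
Normalized CPM (log axis) of 12 IFN-related genes in WT and Cgas-/- microglia with vehicle or tau, with 1 point per library and a bar for the mean ± SD (n = 3). In every panel the 3 Cgas-/- tau points lie below the 3 WT tau points, and the Cgas-/- vehicle points lie lowest.

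Other ISGs were lower as well. Oas3 had 376, 295 and 352 normalized CPM in the WT libraries and 48.9, 41.2 and 39.9 in the Cgas-/- libraries (log2 -2.98, SE 0.10, adjusted p = 7.1e-19), and Oas2 had 111, 93.2 and 114 normalized CPM in the WT libraries and 10.9, 9.63 and 7.32 in the Cgas-/- libraries (log2 -3.52, SE 0.12, adjusted p = 7e-19). Both encode oligoadenylate synthetases, which activate RNase L when they bind double-stranded RNA. Lgals3bp, a secreted glycoprotein, went from 1243, 1058 and 1215 to 391, 416 and 369.5 (log2 -1.58, SE 0.068, adjusted p = 5.73e-17), and Rtp4, an IFN-induced chaperone of receptors, from 209, 182 and 211 to 48.3, 44.1 and 40.6 (log2 -2.18, SE 0.092, adjusted p = 4.66e-17). None of these 4 genes overlapped between the groups. Ifit3, an IFN-induced protein that takes part in the recognition of viral RNA, had 1302, 1022 and 1282 normalized CPM in WT and 126, 101 and 106 in Cgas-/- cells (log2 -3.44, SE 0.19, adjusted p = 1.54e-14), and was chosen, like Isg15, Mx1 and Usp18, after its values were seen. Its neighbour Ifit3b, a close copy with which it may share reads, fell by 4.22 (SE 0.21, adjusted p = 1.38e-15). Isg15, a ubiquitin-like modifier, and Mx1, an antiviral GTPase, had log2 fold changes of -2.29 (adjusted p = 2.34e-13) and -2.99 (adjusted p = 1.92e-14).

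Sequence was looked at next, in the 250 bases before the start of each gene in RefSeq (GRCm38.p6). The letters GAAA, any 2 bases and GAAA again, the core of an ISRE, were searched on both strands and found in 2.82% of 9982 promoters of genes tested. They stood in 10.5% of 711 promoters of genes called lower and in 2.49% of 281 of genes called higher. In the core ISGs 35.3% of 51 promoters held them. The letters GGGA, any 2 bases and TTCC, a form of the NF-kB site, were in 1.22% of all, 2.25% of lower and 1.42% of higher promoters, and a looser form, GGG, any 3 bases and TTCC, which includes them and may overlap itself on the other strand, in 5.22%, 6.33% and 5.69%. A match is a description of these letters and not of a bound factor. The promoters of 4 IFN-induced genes that were lower, of Cxcl2, which was not called, and of Ccl6, which was higher, are shown because the genes moved differently. Ddx60 is at chr8:61927837-61928086 (plus strand), Stat2 at chr10:128270248-128270497 (plus strand), Oas3 at chr5:120777660-120777909 (minus strand), Cxcl10 at chr5:92348890-92349139 (minus strand), Cxcl2 at chr5:90903649-90903898 (plus strand) and Ccl6 at chr11:83593088-83593337 (minus strand). Capitals mark matches to any of the 3 motifs on either strand, and each sequence is given 5′ to 3′ on the strand of its gene.
Ddx60: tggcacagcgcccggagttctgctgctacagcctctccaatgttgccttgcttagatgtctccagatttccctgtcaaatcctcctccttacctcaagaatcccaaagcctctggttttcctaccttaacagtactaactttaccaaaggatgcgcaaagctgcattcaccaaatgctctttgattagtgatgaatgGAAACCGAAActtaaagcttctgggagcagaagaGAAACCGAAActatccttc
Stat2: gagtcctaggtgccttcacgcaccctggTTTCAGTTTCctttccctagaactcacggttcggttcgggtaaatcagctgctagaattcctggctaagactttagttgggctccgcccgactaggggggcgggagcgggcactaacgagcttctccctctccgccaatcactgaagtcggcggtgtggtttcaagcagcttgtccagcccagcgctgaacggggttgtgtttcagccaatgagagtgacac
Oas3: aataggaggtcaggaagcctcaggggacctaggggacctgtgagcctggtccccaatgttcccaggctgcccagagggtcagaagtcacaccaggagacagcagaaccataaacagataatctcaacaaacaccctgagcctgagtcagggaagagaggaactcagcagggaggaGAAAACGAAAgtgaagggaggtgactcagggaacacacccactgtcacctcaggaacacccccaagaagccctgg
Cxcl10: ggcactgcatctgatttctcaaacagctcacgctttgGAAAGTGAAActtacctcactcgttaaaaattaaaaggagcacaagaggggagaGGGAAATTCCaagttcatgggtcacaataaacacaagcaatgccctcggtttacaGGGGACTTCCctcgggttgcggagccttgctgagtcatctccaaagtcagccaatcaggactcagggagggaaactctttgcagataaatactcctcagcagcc
Cxcl2: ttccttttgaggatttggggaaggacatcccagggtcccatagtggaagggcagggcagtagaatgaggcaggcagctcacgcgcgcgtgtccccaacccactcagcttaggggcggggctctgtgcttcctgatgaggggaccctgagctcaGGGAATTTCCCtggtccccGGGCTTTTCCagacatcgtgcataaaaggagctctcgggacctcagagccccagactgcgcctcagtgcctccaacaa
Ccl6: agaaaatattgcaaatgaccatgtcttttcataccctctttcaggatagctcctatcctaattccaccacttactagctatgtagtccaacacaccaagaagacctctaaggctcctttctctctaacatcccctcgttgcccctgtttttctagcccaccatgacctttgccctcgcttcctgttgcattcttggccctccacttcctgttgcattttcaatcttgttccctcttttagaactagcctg

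Ddx60 held 2 matches, both of the ISRE core, and Stat2 and Oas3 held 1 each, that of Stat2 on the opposite strand. Cxcl10 held 1 ISRE core and 2 matches of the NF-kB letters, Cxcl2 held NF-kB letters only, and Ccl6 held none.

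Of the cGAS-STING pathway and other genes that sense or clear DNA, 20 of 21 listed genes were tested. Of these 5 were lower and none higher, against 7.41% and 2.98% of all genes, and the median was -0.14. The 5 were Cgas itself, the deleted gene, and Samhd1, Zbp1, Ifi204 and Dnase1l3. Samhd1, which breaks down the nucleotides from which DNA is made, had 771, 681 and 774 normalized CPM in WT and 232, 222 and 225 in Cgas-/- cells (log2 -1.71, SE 0.08, adjusted p = 3.01e-16). Zbp1, a sensor of left-handed nucleic acids, had 207, 172 and 209 against 52.9, 44.5 and 42.5 (log2 -2.07, SE 0.12, adjusted p = 1.13e-14), and Ifi204, a DNA-binding protein of the PYHIN family, had 799, 729.5 and 839 against 359, 298 and 305 (log2 -1.30, SE 0.10, adjusted p = 2.09e-11). The groups lay apart in all 3 genes, which are IFN-induced themselves. Ifi204 has near-identical relatives in the same cluster, so its value may include reads of theirs. Dnase1l3, a secreted DNase named after its values were seen, was rare, with 0.436, 1.04 and 0.467 against 0.0441, 0 and 0.157 normalized CPM (log2 -3.14, SE 0.68, adjusted p = 0.000406).

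The core of the pathway below cGAS differed less. Tmem173, which encodes STING, had 36.3, 32.3 and 30.6 normalized CPM in WT and 20.6, 22.4 and 23.6 in Cgas-/- cells (log2 -0.57, SE 0.069, adjusted p = 5.61e-08), and Tbk1 had 119, 118 and 125 against 70.9, 71.3 and 73.9 (log2 -0.74, SE 0.042, adjusted p = 1.92e-14). Both were lower without overlap but short of the limit on size. Irf3, the transcription factor that TBK1 phosphorylates, had 37.5, 37.1 and 37.7 against 35.7, 36.6 and 37.0, with a log2 fold change of -0.039 (SE 0.06, adjusted p = 0.615). These 3 genes were chosen after their values were seen.

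Among IFN ligands, receptors and signalling genes 6 of 20 tested were lower (of 23 listed), against 7.41% of all genes. None were higher, and the median was -0.68. Ifnb1 (IFN-β) had 11, 1 and 2 counts in the WT and 1, 0 and 0 in the Cgas-/- libraries, a ratio of 17.2 with a 95% interval of 2.61 to 726 that covers counting error only. Most of these counts came from WT library 1, and its log2 fold change of -3.63 (adjusted p = 0.023) lost its call without WT library 1 (adjusted p = 0.321), Cgas-/- library 2 (0.0712) or Cgas-/- library 3 (0.075). At this depth the ligand itself was barely detectable 6 h after tau, and Ifna2, Ifna4 and Ifng had no count in any of the 6 libraries. Stat2, a transcription factor that carries the IFN signal to the nucleus, was well measured, with 607, 541 and 599 normalized CPM in WT and 162, 164 and 157 in Cgas-/- cells (log2 -1.85, SE 0.095, adjusted p = 2.04e-15). Irf7, the IFN-induced factor that amplifies type I IFN, had 541, 453 and 544 against 135, 122 and 113 (log2 -2.05, SE 0.12, adjusted p = 2.02e-14), and Irf1 had 124, 110.0 and 129 against 46.1, 48.3 and 45.9 (log2 -1.37, SE 0.10, adjusted p = 1.35e-12). None of the 3 overlapped. Usp18, which removes ISG15 and restrains the receptor, fell by 1.85 (SE 0.14, adjusted p = 8.54e-12).

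By contrast Irf9, the DNA-binding partner of the STATs, had 104, 101 and 100.1 normalized CPM in WT and 83.2, 83.6 and 76.0 in Cgas-/- cells, a log2 fold change of -0.33 (SE 0.051, adjusted p = 3.87e-06), and the receptor chain Ifnar1, chosen after its values were seen, had -0.38 (adjusted p = 8.04e-09). Socs3, a feedback inhibitor of cytokine receptors, had 26.3, 20.8 and 29.6 against 25.9, 31.1 and 22.5, which overlapped (log2 0.056, SE 0.11, adjusted p = 0.704). With vehicle the same Socs3 contrast was 1.61 (adjusted p = 4.24e-11), so a difference that was present without tau was not detected with it.

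GBPs and IRGs are GTPases that attack the membranes around intracellular pathogens. Of 16 members tested (of 17 listed) 15 were lower, against 7.41% of all genes, with a median of -2.27. Gbp9 had 123, 107 and 124 normalized CPM in WT and 24.1, 22.2 and 21.8 in Cgas-/- cells (log2 -2.38, SE 0.11, adjusted p = 3.57e-16), and Gbp3 had 283, 234 and 290.5 against 48.1, 39.6 and 45.0 (log2 -2.60, SE 0.13, adjusted p = 1.29e-15). Iigp1 fell by 3.15 (SE 0.17, adjusted p = 8.66e-15) and Irgm2 fell by 2.01 (SE 0.12, adjusted p = 3.1e-14). All 4 were separated by a wide gap between groups. The member not called, Gbp8, which was named after its values were seen, had 3.66, 3.21 and 3.21 against 4.54, 2.97 and 2.31, which overlapped (-0.044, adjusted p = 0.888). GBP genes are close copies of each other, so reads of one may have been counted on another.

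All 3 chemokines that bind CXCR3, the receptor of activated T cells, were lower, against 7.41% of all genes. Cxcl10 (chr5:92346638-92348889) had 609, 446 and 634 normalized CPM in WT and 24.96, 23.8 and 20.8 in Cgas-/- cells, a log2 fold change of -4.60 (SE 0.23, adjusted p = 8.63e-16). The Cgas-/- cells thus kept 4.12% of the WT level, and they lay below untreated WT cells as well, which had 102, 33.5 and 67.6. Cxcl9 was low in both, with 1.96, 2.27 and 2.33 against 0.176, 0.0838 and 0.196 (log2 -3.79, SE 0.48, adjusted p = 2.37e-07). Cxcl11 had 13, 13 and 23 counts in WT and 0, 1 and 0 in Cgas-/- libraries, a ratio of 60.1 with a counting interval of 10.3 to 2420. The groups did not overlap in any of them.

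CC chemokines, which attract monocytes and other leukocytes, were lower in 6 and higher in 1 of 8 members tested (of 11 listed). Of all genes 7.41% were lower and 2.98% higher, and the median of the list was -1.98. Ccl5 had 127, 109.8 and 129 normalized CPM in WT and 32.0, 28.0 and 28.9 in Cgas-/- cells (log2 -2.04, SE 0.10, adjusted p = 2.03e-15), and Ccl4 had 149, 114 and 148 against 36.3, 31.4 and 30.3 (log2 -2.07, SE 0.12, adjusted p = 2.04e-14). Ccl2, the main ligand of CCR2 on monocytes, had 72.2, 57.6 and 87.5 against 18.7, 15.4 and 12.8 (log2 -2.22, SE 0.17, adjusted p = 5.28e-12), and its neighbour Ccl7 had 8.24, 7.09 and 8.66 against 0.838, 0.503 and 0.939 (log2 -3.38, SE 0.26, adjusted p = 8.06e-12). Every Cgas-/- library was below every WT library in these 4 genes. Ccl12, which was named after its values were seen, fell with them (-1.93, adjusted p = 3.73e-11), and so did Ccl3, with 231, 184 and 254 against 105, 91.2 and 89.6 (log2 -1.22, SE 0.10, adjusted p = 1.26e-11). Ccl3 and Ccl4 differed from the ISGs in one respect. With vehicle Ccl3 had 87.4, 59.4 and 74.8 in WT and 81.4, 80.9 and 87.6 in Cgas-/- cells, which overlapped (0.18, adjusted p = 0.147), and the genotype difference under tau differed from it (log2 -1.40, SE 0.14, adjusted p = 5.71e-08). For Ccl4 the difference was -0.83 with vehicle and larger under tau (interaction -1.24, SE 0.17, adjusted p = 2.36e-05).

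Ccl6 moved the other way and had the smallest adjusted p among the CC chemokines. It had 163, 172 and 183 normalized CPM in WT and 1437, 1351 and 1426 in Cgas-/- cells, a rise of 3.02 (SE 0.06, adjusted p = 7.18e-24). With vehicle the levels were nearly the same, 155, 163 and 186 in WT and 1660, 1468 and 1466 in Cgas-/- cells, and the interaction was -0.16 (adjusted p = 0.249). Its genotype difference was thus present without tau.

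No tested chemokine that attracts neutrophils was called. Of 4 listed, 3 were tested, with a median of -0.17, and of all genes 7.41% were called lower and 2.98% higher. Cxcl2 had 31.8, 25.3 and 36.8 normalized CPM in WT and 15.2, 15.8 and 18.2 in Cgas-/- cells, which did not overlap (log2 -0.93, SE 0.13, adjusted p = 9.89e-07), and it passed the limit on size, at -1.06, without WT library 2 and, at -1.01, without Cgas-/- library 3. Cxcl3 had 11.0, 9.88 and 12.7 against 10.7, 9.93 and 10.8, which overlapped (log2 -0.088, SE 0.16, adjusted p = 0.673), and Cxcl1, named after its values were seen, had 2.02, 1.09 and 1.14 against 1.37, 1.22 and 1.17, which also overlapped (log2 -0.17, SE 0.34, adjusted p = 0.711). All 3 genes were higher in tau-treated Cgas-/- libraries than in every untreated WT library, as were 28.5% of all genes and 0 of the 3 CXCR3 ligands. With 3 genes each, these lists are too short to compare the families. For Cxcl2 the untreated WT libraries had 3.19, 3.94 and 4.05, and untreated Cgas-/- cells had 7.65, 6.57 and 8.23. Cxcl2 was thus called higher in Cgas-/- cells with vehicle (1.01, adjusted p = 4.72e-05). With vehicle 2 of the 3 genes were called higher and 0 lower, against 2.63% and 7.35% of all genes.

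Cytokines were mixed. Of 18 tested (of 23 listed) 5 were lower and 1 higher (2 without WT library 2), against 7.41% and 2.98% of all genes. The median was -0.73. With vehicle 4 of the 18 were called lower and 4 higher, against 7.35% and 2.63% of all genes. Tnfsf10, the death receptor ligand TRAIL, had 47.8, 39.2 and 50.4 normalized CPM in WT and 4.89, 3.81 and 3.56 in Cgas-/- cells (log2 -3.49, SE 0.20, adjusted p = 3.1e-14). Il15, a growth factor of T and NK cells, had 31.7, 28.2 and 34.0 against 8.16, 6.62 and 8.10 (log2 -2.04, SE 0.13, adjusted p = 1.6e-13), and Il18 had 12.6, 10.9 and 12.8 against 4.37, 3.85 and 4.62 (log2 -1.49, SE 0.13, adjusted p = 5.75e-11). The groups were apart in all 3, as they were in Il1rn, the antagonist of the IL-1 receptor, with 235, 212 and 256 against 109, 101 and 95.9 (log2 -1.20, SE 0.067, adjusted p = 1.15e-14). The fifth was Il27, chosen after its values were seen (-2.08, adjusted p = 2.25e-06). Inhba, a subunit of activin A, was higher, with 37.9, 31.2 and 34.7 against 86.7, 71.5 and 71.8 (log2 1.15, SE 0.092, adjusted p = 2.37e-11).

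The classical inflammatory cytokines moved less than the limit on size. Tnf had 97.8, 76.0 and 105 normalized CPM in WT and 47.4, 48.0 and 57.1 in Cgas-/- cells, without overlap (log2 -0.87, SE 0.094, adjusted p = 8.67e-09). With vehicle it was higher in Cgas-/- cells, with 24.2, 21.1 and 20.2 against 27.4, 33.2 and 33.7 (0.53, adjusted p = 0.000264), so the sign of the genotype difference turned with tau (interaction -1.40, SE 0.15, adjusted p = 1.59e-07). Il1b had 20.2, 13.5 and 24.4 against 12.96, 12.8 and 11.3 (log2 -0.65, SE 0.17, adjusted p = 0.00273), and without WT library 3 its adjusted p was 0.0571. With vehicle Il1b was low but called higher in Cgas-/- cells (1.05, adjusted p = 0.0456), so its sign turned too (interaction -1.69, SE 0.47, adjusted p = 0.0246). Il6 was low and its groups overlapped, with 3.33, 1.37 and 2.54 against 1.41, 1.68 and 1.17 (log2 -0.76, SE 0.37, adjusted p = 0.0909). It passed the test without WT library 2, at -1.04. Il12b, chosen after its values were seen, had 10.5, 8.93 and 13.6 against 6.39, 5.82 and 6.18 (log2 -0.84, SE 0.21, adjusted p = 0.00134). Tnf, Il1b and Il12b were thus lower in Cgas-/- cells by less than the limit, and Il6 was not detectably different.

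Of the enzymes of inflammation 9 of 10 were tested, and 4 were lower and 1 higher, against 7.41% and 2.98% of all genes. The median was -0.35. Nos2, which makes nitric oxide, had 11.4, 8.08 and 9.38 normalized CPM in WT and 0.397, 0.628 and 1.45 in Cgas-/- cells (log2 -3.51, SE 0.32, adjusted p = 3.54e-10). Acod1, which makes itaconate, had 1403, 1105 and 1468 against 432, 404 and 396 (log2 -1.69, SE 0.12, adjusted p = 3.27e-12). Ptgs2, the inducible cyclooxygenase, had 35.8, 27.4 and 45.6 against 8.47, 8.71 and 8.22 (log2 -2.10, SE 0.17, adjusted p = 2.27e-11). None of them overlapped, and Ptgs2, like Ccl3, was not called without tau, with 4.79, 3.42 and 2.86 against 2.90, 3.34 and 4.71 (-0.0076, adjusted p = 0.982, and interaction -2.09, SE 0.30, adjusted p = 3.26e-05). The fourth was the histidine decarboxylase gene Hdc (-2.82, adjusted p = 4.43e-05). Arg1, the arginase that competes with NOS2 for arginine, was among the genes with the largest rises by the naming rule. It had 0.928, 1.80 and 2.02 in WT and 59.1, 65.1 and 52.5 in Cgas-/- cells (log2 5.20, SE 0.14, adjusted p = 3.47e-21), and with vehicle 1.59, 1.43 and 1.46 against 84.1, 99.3 and 88.1.

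**Figure D3:**
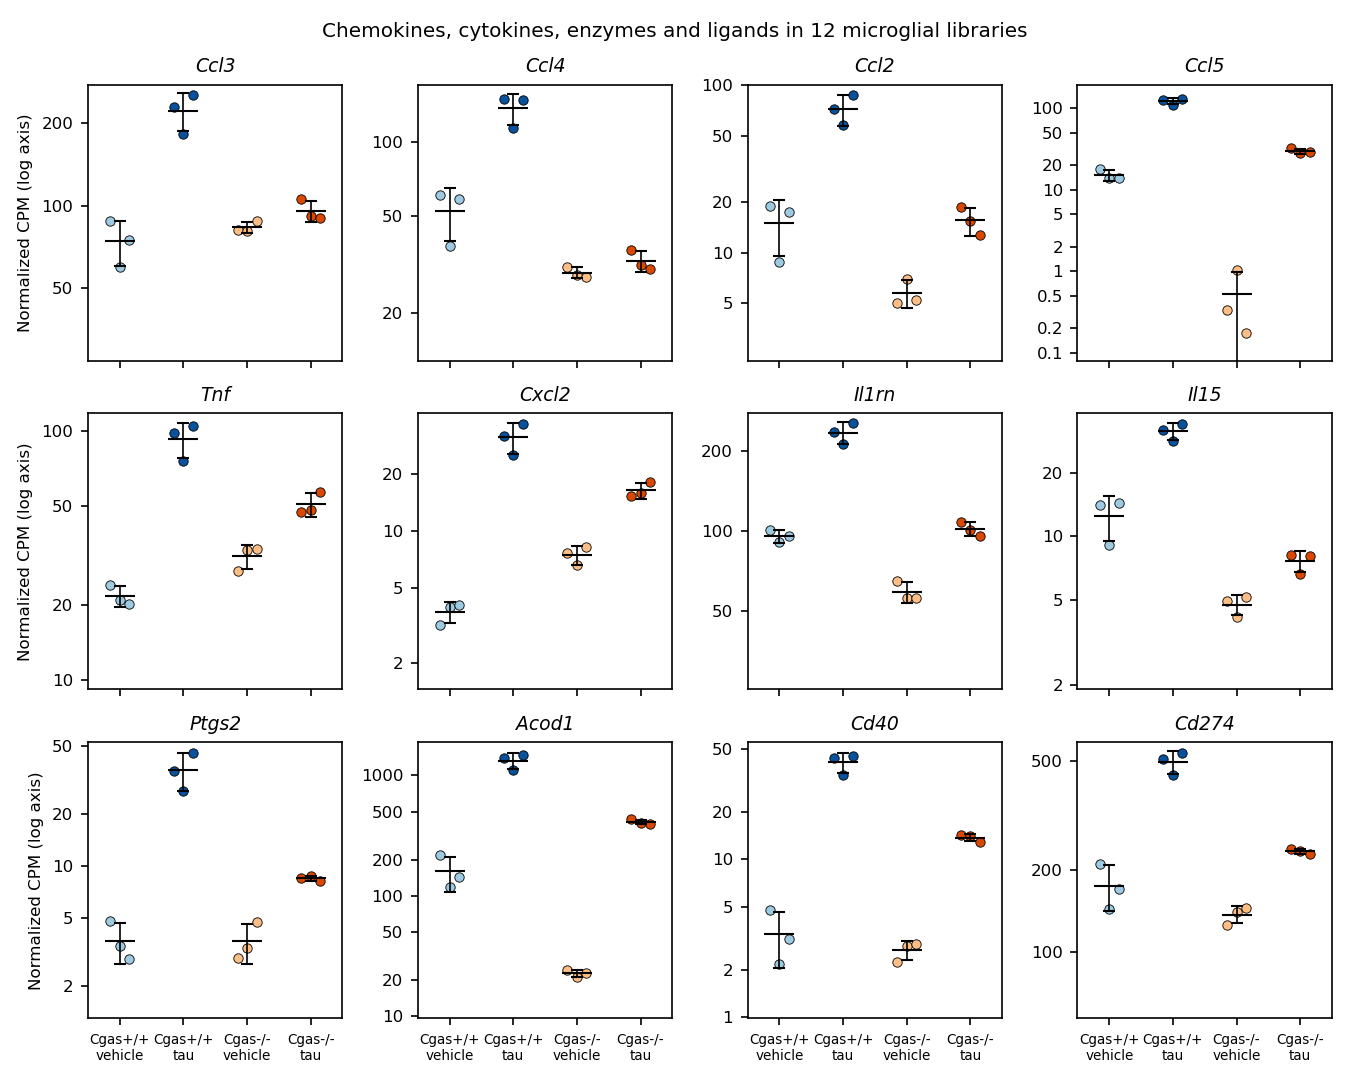
Normalized CPM (log axis) of 12 chemokine, cytokine, enzyme and surface ligand genes in WT and Cgas-/- microglia with vehicle or tau, with 1 point per library and a bar for the mean ± SD (n = 3). With vehicle Ccl3, Tnf, Ptgs2 and Cd40 were not called and Cxcl2 was called higher in Cgas-/- cells, whereas Ccl5 and Acod1 were lower with vehicle and with tau.

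NF-kB subunits and their feedback inhibitors gave 1 gene called lower of 18 tested and none higher, against 7.41% and 2.98% of all genes. Their median was -0.37. That gene was Traf1, an adaptor of TNF receptors, with 12.6, 8.08 and 10 normalized CPM in WT and 4.23, 3.48 and 2.82 in Cgas-/- cells (log2 -1.54, SE 0.21, adjusted p = 5.58e-07). Without the limit on size 12 of the 18 were lower, against 26.2% of all genes, and none were higher. Rela, the main activating subunit, had 118, 114 and 119 against 110.1, 119 and 109.7, which overlapped (log2 -0.052, SE 0.043, adjusted p = 0.336), and was named after its values were seen. In 14 of the 18 the tau-treated Cgas-/- libraries were all above untreated WT libraries, where 28.5% of all genes were.

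Of 23 genes tested for Toll-like receptors, their adaptors and uptake receptors (of 24 listed), 3 were lower and 1 higher, against 7.41% and 2.98% of all genes. Tlr9, which senses DNA in endosomes, had 27.2, 25.3 and 25.6 normalized CPM in WT and 6.48, 5.74 and 5.99 in Cgas-/- cells (log2 -2.10, SE 0.10, adjusted p = 1.87e-16), and Tlr3, which senses double-stranded RNA there, had 108, 97.3 and 117 against 23.7, 26.5 and 24.8 (log2 -2.10, SE 0.11, adjusted p = 2.42e-15). Sdc4, a heparan sulphate proteoglycan, fell from 33.8, 30.8 and 35.04 to 14.5, 12.4 and 14.6 (log2 -1.26, SE 0.085, adjusted p = 6.92e-13). Marco, a scavenger receptor, was higher, with 14.1, 12.01 and 14.2 against 29.6, 28.2 and 24.9 (log2 1.04, SE 0.10, adjusted p = 9.08e-10), but stood just past the limit and was short of it without WT library 2 (0.96) or Cgas-/- library 1 (0.99). The groups were apart in all 4. Of 14 inflammasome and necroptosis genes 2 were lower, Zbp1 and Mlkl, the executor of necroptosis (-1.46, adjusted p = 4.08e-10), against 7.41% of all genes.

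Genes of antigen presentation by MHC class I were lower in 8 of 20 members, against 7.41% of all genes, and higher in none, with a median of -0.70. Nlrc5, which switches these genes on, had 277, 244 and 277 normalized CPM in WT and 88.4, 88.5 and 85.6 in Cgas-/- cells (log2 -1.60, SE 0.086, adjusted p = 5.34e-15). Tapbp, which loads peptides, had 765, 681 and 755 against 336, 354.3 and 351 (log2 -1.08, SE 0.047, adjusted p = 7.38e-17), and Psmb10, an immunoproteasome subunit, had 155, 142 and 155 against 72.5, 72.5 and 74.1 (log2 -1.04, SE 0.059, adjusted p = 1.38e-14). H2-T22, a non-classical class I gene with close relatives, fell from 228, 191 and 238 to 87.5, 76.4 and 75.4 (log2 -1.46, SE 0.082, adjusted p = 1.54e-14). These 4 were separated between groups. The peptide transporter Tap1 (-1.36) and the subunit Psmb9 (-1.22), chosen after their values were seen, were lower too. The classical heavy chains, also chosen afterwards, were not: H2-K1 had 1660, 1457 and 1605 against 1560, 1504 and 1400 (log2 -0.081, SE 0.054, adjusted p = 0.216), and H2-D1 had 2126, 1933 and 2127 against 1976, 1963 and 1871 (log2 -0.09, SE 0.053, adjusted p = 0.163), and both overlapped.

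MHC class II genes gave 1 lower and 1 higher of 7 tested (of 9 listed), against 7.41% and 2.98% of all genes. The number lower rose to 2 with DESeq2, without the filter on low counts and without WT tau library 2, Cgas-/- tau library 2 or any single vehicle library, and to 3 without Cgas-/- tau library 1. The invariant chain Cd74 had 14.2, 13.7 and 12.1 normalized CPM in WT and 6.57, 7.04 and 5.44 in Cgas-/- cells (log2 -1.07, SE 0.14, adjusted p = 3.98e-07), and without Cgas-/- library 3 it was short of the limit on size (-0.97). H2-Ab1, a class II β chain, had 2.40, 3.497 and 2.33 against 13.7, 9.80 and 11.3 (log2 2.06, SE 0.18, adjusted p = 2.15e-10). Both were low and neither overlapped. Among costimulatory and checkpoint genes 4 of 11 tested (of 12 listed) were lower, against 7.41% of all genes, and none higher. Cd69, an early activation marker, had 108, 79.8 and 106 against 14.3, 11.6 and 10.5 (log2 -3.02, SE 0.18, adjusted p = 3.51e-14), Cd40 had 44.0, 34.0 and 44.9 against 14.3, 13.9 and 12.9 (log2 -1.58, SE 0.13, adjusted p = 2.89e-11), and Cd274, which encodes PD-L1, had 509, 443 and 535 against 239, 234 and 229 (log2 -1.08, SE 0.085, adjusted p = 1.36e-11). The groups were apart in all of them. The fourth was Slamf8 (-1.25, adjusted p = 5.53e-08). The genotype difference of Cd40 was larger under tau than with vehicle (log2 -1.25, SE 0.27, adjusted p = 0.00358), and so was that of Cd274 (log2 -0.74, SE 0.12, adjusted p = 0.000181).

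Genes of homeostatic microglia were lower in 3 of 17 tested (of 19 listed), against 7.41% of all genes, and higher in none, with a median of -0.63. Olfml3 had 338, 328 and 324 normalized CPM in WT and 116, 117 and 112 in Cgas-/- cells (log2 -1.52, SE 0.039, adjusted p = 8.79e-22). Cx3cr1, the fractalkine receptor, had 442, 448 and 430.4 against 175, 184 and 187 (log2 -1.27, SE 0.042, adjusted p = 2.3e-19). The groups were apart in both genes, and the values within each group were close. P2ry12, the purinergic receptor of resting microglia, was low in these cultures, with 8.62, 8.84 and 9.49 against 5.95, 4.86 and 5.83 (log2 -0.69, SE 0.13, adjusted p = 4.71e-05), and Tmem119 had 12.8, 13.2 and 10.9 against 15.5, 12.9 and 14.1, which overlapped (log2 0.20, SE 0.10, adjusted p = 0.102). Both were named after their values were seen. In 15 of the 17 the tau-treated Cgas-/- libraries were below all untreated WT libraries, where 27.2% of all genes were.

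The markers of disease-associated microglia, a state first described beside amyloid plaques, were lower in none and higher in 2 of 22. Of all genes 7.41% were lower and 2.98% higher, and the median of the list was 0.16. The 2 higher were Ccl6 and Cst7, a cysteine protease inhibitor, which had 35.1, 30.8 and 34.2 normalized CPM in WT and 86.0, 93.1 and 85.4 in Cgas-/- cells (log2 1.40, SE 0.072, adjusted p = 2.38e-15). Apoe, among the most abundant transcripts here and chosen after its values were seen, had 16600, 16570 and 16380 against 18940, 18490 and 18560 (log2 0.18, SE 0.03, adjusted p = 1.43e-05). Neither overlapped, and the second difference was small.

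Complement and Fc receptor genes were lower in 6 of 17 tested (of 18 listed), against 7.41% of all genes, and higher in none, with a median of -0.89. C3ar1, the receptor of C3a, had 1193, 1113 and 1184 normalized CPM in WT and 376, 367 and 379 in Cgas-/- cells (log2 -1.64, SE 0.045, adjusted p = 3.77e-21), and C5ar1 had 147, 146 and 132 against 66.6, 63.7 and 59.9 (log2 -1.16, SE 0.061, adjusted p = 3.77e-15). The Fc receptor Fcgr1 had 429, 357 and 421 against 119.6, 120.2 and 118 (log2 -1.76, SE 0.079, adjusted p = 1.58e-16), and Fcgr4 had 51.2, 39.8 and 56.8 against 17.5, 16.5 and 16.5 (log2 -1.55, SE 0.11, adjusted p = 1.65e-12). The WT libraries were above the Cgas-/- libraries in all 4. C3 (-1.11, adjusted p = 4.58e-12) and C4b (-2.97, adjusted p = 0.00359, at most 12 counts in any library) were the others, and with C1qa were chosen after their values were seen. C1qa, a chain of the C1q complex, had 1609, 1565 and 1630 against 858, 827 and 807, lower in every Cgas-/- library but short of the limit (log2 -0.95, SE 0.038, adjusted p = 1.98e-17).

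Cell cycle genes were lower in 18 of 28, against 7.41% of all genes, and higher in none, with a median of -1.41. Mki67, the antigen by which dividing cells are stained, had 45.8, 49.1 and 46.03 normalized CPM in WT and 14.02, 16.6 and 17.7 in Cgas-/- cells (log2 -1.54, SE 0.10, adjusted p = 7.68e-13). Top2a, which untangles chromosomes, had 33.0, 31.9 and 30.2 against 8.51, 8.21 and 9.51 (log2 -1.85, SE 0.10, adjusted p = 1.09e-14), and the replication helicase subunit Mcm6 had 69.5, 67.2 and 71.2 against 29.7, 31.3 and 28.99 (log2 -1.21, SE 0.058, adjusted p = 4.6e-16). In all 3 the groups lay apart. The mitotic genes Ccnb2 (-2.23) and Plk1 (-2.07) were lower too, and Pcna had -0.28 (adjusted p = 1.22e-05). They were chosen after their values were seen. The same number, 18, was lower with vehicle, where the median was -1.47, and none of the 28 had a genotype difference that differed between tau and vehicle by the interaction test. In 25 of the 28 the tau-treated Cgas-/- libraries were below all untreated WT libraries, where 27.2% of all genes were.

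Early response and stress genes went both ways, with 3 lower and 4 higher of 16, against 7.41% and 2.98% of all genes. Egr1, a zinc finger factor induced by growth factors, had 7.86, 9.88 and 9.28 normalized CPM in WT and 33.3, 49.1 and 45.0 in Cgas-/- cells (log2 2.23, SE 0.13, adjusted p = 1.85e-14), and its relative Egr2 had 45.6, 46.6 and 48.5 against 107, 112 and 118 (log2 1.26, SE 0.053, adjusted p = 4e-17). Ier3 had 10.7, 11.2 and 13.8 against 34.1, 33.6 and 30.3 (log2 1.46, SE 0.082, adjusted p = 1.32e-14), and Ier2 had 21.1, 22.7 and 26.0 against 49.8, 51.7 and 54.0 (log2 1.16, SE 0.077, adjusted p = 5.65e-13). These 4 were higher in every Cgas-/- library. Dusp1, a phosphatase that switches off MAP kinases, had 73.7, 70.2 and 73.6 against 33.1, 29.4 and 32.1 (log2 -1.20, SE 0.063, adjusted p = 3.62e-15), and the heat shock gene Hspa1b had 6.002, 4.63 and 8.35 against 2.65, 1.22 and 1.45 (log2 -1.84, SE 0.26, adjusted p = 7.3e-07). Both fell without overlap. The other one lower was Hspa1a (-1.58, adjusted p = 0.000172), a near-identical copy of Hspa1b with which it may share reads.

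**Figure D4:**
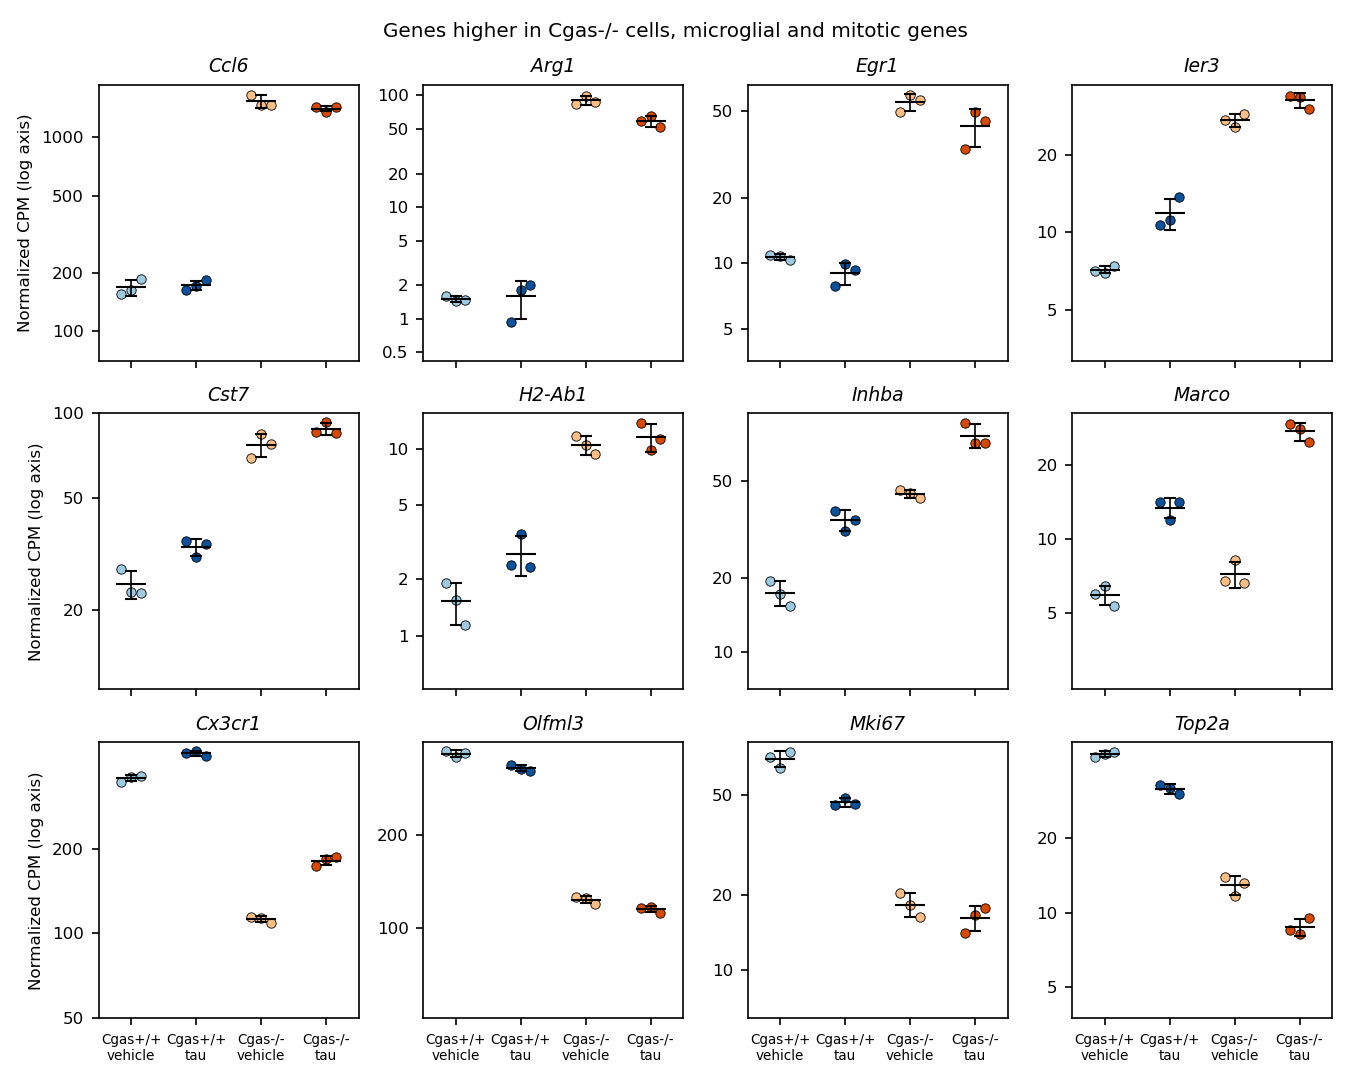
Normalized CPM (log axis) of 12 genes of other groups in WT and Cgas-/- microglia with vehicle or tau, with 1 point per library and a bar for the mean ± SD (n = 3). Ccl6, Arg1, Egr1, Ier3, Cst7, H2-Ab1 and Inhba were higher in Cgas-/- cells with vehicle and with tau, and Cx3cr1, Olfml3, Mki67 and Top2a were lower with both.

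Other lists barely moved. Of all genes 7.41% were called lower and 2.98% higher. None of 18 NRF2 and iron genes were called (median 0.10), and Fth1, the ferritin heavy chain, had 14800, 14600 and 15010 normalized CPM in WT and 16060, 16280 and 16280 in Cgas-/- cells (log2 0.13, SE 0.034, adjusted p = 0.00214). None of the 13 genes encoded in mitochondrial DNA were called (median -0.11), and mt-Co1 had 9584, 10400 and 9832 against 11320, 9988 and 10620 (log2 0.10, SE 0.038, adjusted p = 0.0314), which overlapped. The 20 genes of cholesterol synthesis and export had a median of 0.12.

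Beyond the groups above, the largest falls by the naming rule included genes that are not on the list of core ISGs. Flt4, the receptor of VEGF-C, had 3.71, 1.94 and 2.07 normalized CPM in WT and 0.0441, 0 and 0.117 in Cgas-/- cells, 149 against 4 counts, a ratio of 45.7 with a counting interval of 17.5 to 170 (adjusted p = 4.01e-09). Slc6a4, the serotonin transporter, had 2.40, 2.60 and 2.85 against 0.0882, 0.126 and 0.0391, a ratio of 31.5 with an interval of 14.1 to 87.1. Id3, an inhibitor of helix-loop-helix factors, had 3.17, 3.78 and 3.42 against 0.0441, 0.0419 and 0.196 (log2 -5.08, SE 0.38, adjusted p = 6.25e-12). In each of these the 3 Cgas-/- libraries had next to none. Ms4a6b, a membrane protein with close relatives in its cluster, had 78.8, 76.5 and 78.1 against 5.12, 4.11 and 4.30 (log2 -4.11, SE 0.092, adjusted p = 8.75e-23), and the apolipoprotein L gene Apol9a, a near copy of Apol9b, had 85 against 3 counts, a ratio of 34.8 with an interval of 11.5 to 172. All were lower in every Cgas-/- library than in any WT library, which the naming rule required.

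Beside Arg1, the largest rises by the naming rule included Car6, a secreted carbonic anhydrase. It had 2 counts over the WT and 159 over the Cgas-/- libraries, a ratio of 64.8 with a counting interval of 17.6 to 540. Rnase2a, an eosinophil-type ribonuclease of a family of close copies, had 0.436, 0.709 and 0.518 normalized CPM in WT and 7.19, 7.67 and 7.16 in Cgas-/- cells (log2 3.70, SE 0.23, adjusted p = 1.25e-13). P3h4, a component of collagen-modifying complexes, had 0.600, 0.520 and 0.622 against 5.20, 5.53 and 6.30 (log2 3.28, SE 0.21, adjusted p = 2.62e-13). All 3 rose without overlap, which the naming rule required. Of the 3 P3h4 had a difference that differed between tau and vehicle (log2 1.08, SE 0.30, adjusted p = 0.0278), though not without WT tau library 2 (adjusted p = 0.0756) or several other single libraries. In the 10 Mb on either side of Cgas on chromosome 9, where a line bred from other stock could carry foreign sequence, 10 of 77 genes tested were lower (13%) and 1 was higher (1.3%), against 7.41% and 2.98% of all genes. The part of such sequence in these results was not tested.

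Markers of other cell types moved with the genotype, some of them at low and some at higher levels. The counts of markers called stand against 7.41% lower and 2.98% higher over all genes. Endothelial markers summed to 142 to 177 normalized CPM in WT and 30.3 to 34.1 in Cgas-/- cells, and all 3 of 6 that could be tested were lower. Most of this was Flt1, with 116, 98.3 and 123 against 20.9, 23.2 and 24.2 (log2 -2.30, SE 0.075, adjusted p = 1.85e-19), and Kdr, with 50.7, 41.9 and 52.8 against 8.99, 10.7 and 8.26 (log2 -2.38, SE 0.11, adjusted p = 1.14e-16), both receptors of VEGF. Border macrophage markers summed to 488 to 521 in WT and 226 to 257 in Cgas-/- cells, with 3 lower and 1 higher of 5 tested, and Cd163 was at 0 in the WT libraries. Ms4a7 had 319.5, 291 and 319 against 89.2, 79.5 and 81.1 (log2 -1.90, SE 0.048, adjusted p = 7.43e-22), and the mannose receptor Mrc1 had 73.2, 72.3 and 72.4 against 24.8, 27.6 and 28.9 (log2 -1.42, SE 0.06, adjusted p = 4e-17). The WT libraries were above the Cgas-/- libraries in these 4 genes. Astrocyte markers summed to 10.8 to 13.2 in WT and 5.99 to 8.60 in Cgas-/- cells, with 5 lower and 1 higher of 7 tested. The number lower was 3 without Cgas-/- library 2, Cgas-/- library 3 or WT library 2 and 2 when the fit was limited to the groups compared, and none were higher without Cgas-/- library 1 or WT library 3. Gfap had at most 0.57 in any of the 6 libraries. Aldh1l1 was more abundant, with 8.13, 5.53 and 5.91 against 1.19, 0.88 and 0.90 (log2 -2.71, SE 0.20, adjusted p = 6.76e-12). The marker that was higher was Aldoc (log2 1.06, SE 0.20, adjusted p = 6.41e-05).

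Fibroblast and mural markers summed to 3.22 to 6.76 normalized CPM in WT and 1.14 to 1.80 in Cgas-/- cells, with 4 lower of 5 tested. The number lower was 0 when the fit was limited to the groups compared. Of these markers Col1a1 had 2, 36 and 16 counts in WT and 0 in all Cgas-/- libraries, at least 22.1-fold lower against a floor of 3 counts. WT library 1 was itself under that floor, so the fold rests mostly on WT libraries 2 and 3. Oligodendrocyte lineage markers summed to 585 to 612 in WT and 578 to 635 in Cgas-/- cells, with 3 lower of 7 tested. These were 5 with DESeq2, without the filter on low counts and without most single libraries, among them each Cgas-/- tau library and WT tau library 3. Dendritic cell markers summed to 483 to 507 in WT and 355 to 401 in Cgas-/- cells, with 1 lower of 4 tested and none higher (1 higher without WT library 2). The gene called was the chemokine receptor Xcr1, with 34, 28 and 47 counts in the WT and 6, 0 and 5 in the Cgas-/- libraries (log2 -3.56, SE 0.59, adjusted p = 9.55e-06). Ependymal and choroid plexus markers came to 1.31 to 10.6 and 0.168 to 0.529. Neuronal markers came to 1.99 to 3.001 and 0.62 to 1.01, lymphocyte markers to 1.32 to 1.80 and 2.05 to 3.18, and neutrophil and monocyte markers to 4.68 to 5.18 and 6.16 to 6.85. The neutrophil markers Ly6g, S100a9 and Retnlg were at 0 in both groups. The cultures also differed in sex-linked transcripts. Over the 9 libraries of each genotype Xist had 458 to 575 normalized CPM in WT and 249 to 300 in Cgas-/- cells, and the Y-linked Ddx3y had 23.3 to 32.2 and 49.3 to 59.1. All cultures thus held cells of both sexes, with more male transcripts in Cgas-/- cells, and under tau Eif2s3y, a Y-linked gene, was called higher (log2 1.30, SE 0.08, adjusted p = 1e-13). The part of cell makeup and sex in the results above was not tested.

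With vehicle, where no fibrils had been added and no library is shared with the comparison under tau, 1005 genes (7.35%) were lower and 360 (2.63%) higher in Cgas-/- than in WT cells. Of the 1014 genes lower under tau, 744 (73.4%) were also lower with vehicle, 270 were not called there and none were called in the opposite direction, and these 744 were 74.0% of the genes lower with vehicle. Of the 407 genes higher under tau, 244 (60.0%) were also higher with vehicle, which is 67.8% of the genes higher there. The scatter of both contrasts shows this as a cloud along the line of equal change.

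**Figure D5:**
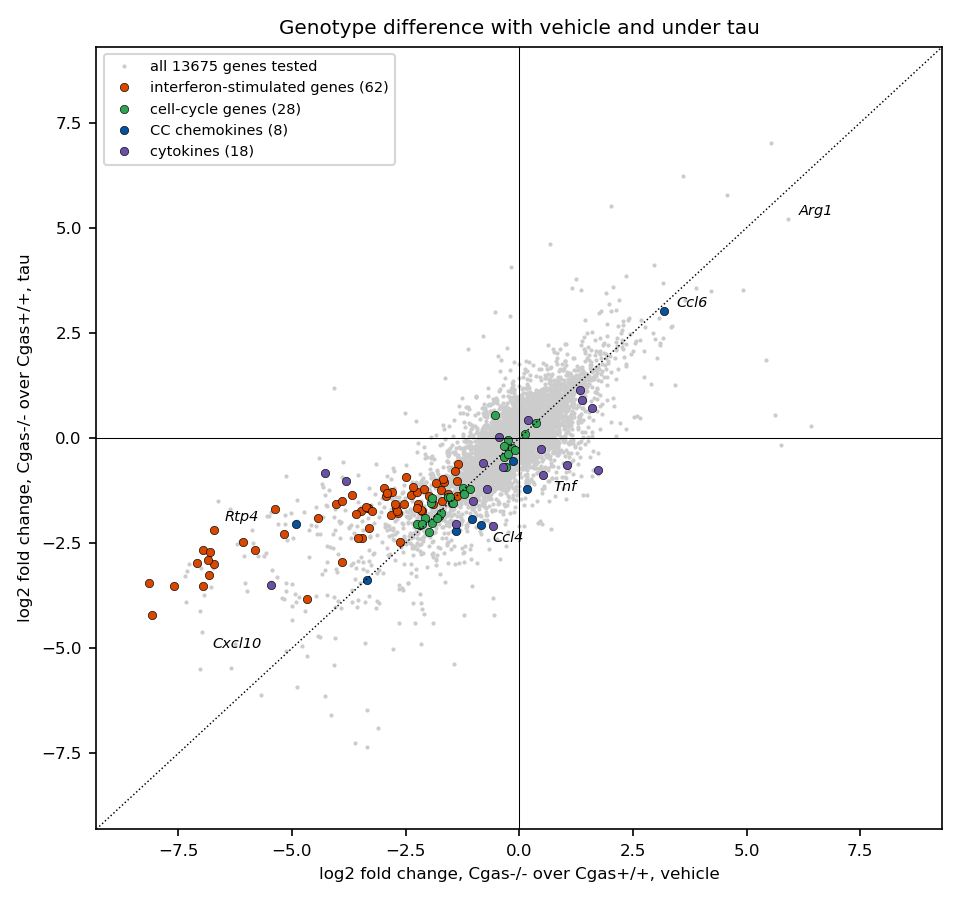
Log2 fold change of Cgas-/- over WT microglia with vehicle (horizontal axis) and under tau (vertical axis) for each gene tested, with ISGs, cell cycle genes, CC chemokines and cytokines in colour and the dotted line of equal change. All but 1 of the 62 ISG points lie above the dotted line, with larger falls with vehicle than under tau, and cell cycle points lie near it.

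Whether the genotype difference itself differed between tau and vehicle was tested by the interaction, which was positive, meaning that the log2 fold change of Cgas-/- over WT cells was higher under tau than with vehicle, for 493 genes (3.61%) and negative for 452 (3.31%). Of the 1014 genes lower under tau, 124 had a smaller difference under tau than with vehicle, 61 a larger one and 829 were not called. Of the 62 core ISGs, 56 were among those with a positive interaction and none had a negative one, and their median log2 fold change was -2.95 with vehicle against -1.67 under tau. Over all genes tested, the positive interactions with the smallest adjusted p were those of Rtp4, Oasl2, Oas3, Irf7 and Irf9. Of these Irf9 is not on the list of core ISGs. Rtp4 had 116, 79.2 and 106 normalized CPM in untreated WT cells and 0.558, 1.41 and 0.880 in untreated Cgas-/- cells, so its genotype difference was -6.71 with vehicle and -2.18 under tau (interaction 4.52, SE 0.23, adjusted p = 1.99e-13). Oasl2, an oligoadenylate synthetase-like protein, had 455, 397 and 455 against 138, 134 and 132 under tau and 227, 173 and 192 against 3.29, 6.88 and 4.18 with vehicle (interaction 3.67, SE 0.16, adjusted p = 5.52e-15). Both fell under either treatment, in every Cgas-/- library.

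On the scale of levels the order is the reverse. The mean level rose from vehicle to tau by more normalized CPM in WT than in Cgas-/- cells in 61 of the 62 core ISGs, the exception being Trim25. For Ddx60 the mean rose by 134 in WT and 32.5 in Cgas-/- cells, while the fold with tau was 3.04 in WT and 6.45 in Cgas-/- cells. Over the list the median log2 fold change with tau was 1.18 in WT and 2.66 in Cgas-/- cells, which started from lower levels. The sign of the interaction depends on whether folds or level differences are compared. These values share libraries with the comparisons above and are given side by side only.

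The genes with a larger genotype difference under tau than with vehicle were of other groups. Of the 61 genes, 46 were not called with vehicle. Mmp13 and Ccl3 had the smallest p-values among those named here. Mmp13, a collagenase, had 295, 263 and 309.7 normalized CPM in WT and 68.4, 65.3 and 68.7 in Cgas-/- cells under tau and 161, 134 and 146 against 70.4, 61.1 and 66.9 with vehicle, with a genotype difference of -2.10 (SE 0.063, adjusted p = 2.32e-20) under tau and an interaction of -0.95 (SE 0.09, adjusted p = 1.72e-08). Its level in Cgas-/- cells was about the same with tau and vehicle. C3ar1 (log2 -0.50, SE 0.06, adjusted p = 2.71e-06), Dusp1 (log2 -0.63, SE 0.09, adjusted p = 3.25e-05) and Ptgs2 (log2 -2.09, SE 0.30, adjusted p = 3.26e-05) had negative interactions as well. Whether or not a gene was called lower under tau, 5 cytokines, 5 NF-kB genes, 6 costimulatory genes and 3 CC chemokines had negative interactions. Of all genes 3.31% did. These counts take in genes outside the 61, such as Tnf. Traf1, the only NF-kB gene called lower under tau, had no called interaction (adjusted p = 0.179). Counts of genes with an interaction depended on single libraries. Without WT tau library 3 the negative ones were 267 and the positive ones 322, and without WT tau library 1 the positive ones were 318.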

How the data were processed

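Counts per gene of primary microglia were analysed as deposited, 3 libraries each of WT and Cgas-/- cells under tau, with the vehicle and HT-DNA libraries in the same fit (18 libraries in 6 groups). The authors deposited raw counts for 54532 Ensembl genes without normalization, of which 54409 were matched to a gene symbol. The submitters' processing notes name GRCm38, edgeR and limma. The aligner and counter are not given in the sources used here. Per the labels the libraries were made with a 3′ kit, whereas the study's methods name another route, so length effects on counts are unknown. Total counts were 17037459 to 25174764 per library.

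Genes were filtered with filterByExpr (13675 kept), scaled with TMM and tested with edgeR 4.0.16 in R 4.3.3 (glmQLFit and glmQLFTest, 1 coefficient per group, no covariate), and p-values were adjusted by the Benjamini-Hochberg method over all genes tested. Adjusted p-values in the text are from this test. A gene was called when its log2 fold change was past 1 and its adjusted p below 0.05, and the interaction by its p alone. Normalized CPM are counts over the scaled library size, SE is the standard error of the log2 fold change, and counting intervals are exact 95% intervals that cover counting error only. On simulated data with 200 genes changed by 1.5 (log2) the tau contrast recovered 97.5% to 99.5% in 3 runs of 13449 to 13482 genes.

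The genes, lists and rules were chosen with earlier results of these data known. Named were Cgas and the genes the study names, up to 12 largest changes in each direction (no overlap of groups, 20 counts or more on average in the higher one), up to 4 called members of each list in each direction, the 2 most abundant members of lists with none, and up to 5 genes by interaction. From these only some are given, genes chosen after their values were seen are marked so, and some genes are not reported here. No 2 libraries of a group agreed within sampling noise. Alternatives were DESeq2 1.42.0, RLE scaling, no filter, no minimum fold change, only the compared groups, the replicate number as a block and each of the 12 tau and vehicle libraries left out. Motifs were searched in RefSeq promoters.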

Additional observations from a re-analysis of the deposited data

Results flagged for a closer look

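The genotype difference differed between tau-treated and untreated microglia in 493 genes in the positive direction and in 452 in the negative direction, by edgeR's quasi-likelihood test of the interaction. A positive log2 value means that Cgas-/- cells stood higher against WT cells under tau than with vehicle, and a negative one that they stood lower. With only 3 libraries a group, no search for single libraries far from the others was made. The values below are those of genes named in the text, and the cause of these differences was not tested.

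Among IFN-related genes the interaction was largest in Ifit3 (4.72), Rtp4 (4.52), Iigp1 (4.15), Oas3 (4.10), Oas2 (4.08), Ifit3b (3.86), Mx1 (3.73), Usp18 (3.70) and Oasl2 (3.67). It was smaller in Irf7 (3.26), Isg15 (2.89), Zbp1 (2.51), Cxcl10 (2.36), Stat2 (1.72), Rnf213 (1.66), Ifi204 (1.61), Trim30a (1.58) and Sp100 (1.51). It was least in Gbp3 (1.49), Gbp9 (1.32), Irf9 (1.21), Irgm2 (1.19), Ddx60 (1.09), Parp12 (0.96), Trim25 (0.74), Slfn2 (0.70), Lgals3bp (0.65), Ifitm3 (0.62) and Ifi35 (0.60). Other genes with a positive interaction were Ccl5 (2.87), Acod1 (1.12), P3h4 (1.08), Tmem119 (0.85), Marco (0.77), Tap1 (0.61) and Cx3cr1 (0.40).

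Negative interactions were found in Cxcl1 (-5.93), Flt4 (-3.94), Ptgs2 (-2.09), Cxcl2 (-1.94), Il1b (-1.69), Socs3 (-1.56), Ccl3 (-1.40), Tnf (-1.40), Cd40 (-1.25), Ccl4 (-1.24) and Mmp13 (-0.95). Smaller ones were found in Slamf8 (-0.94), Kdr (-0.77), Fcgr4 (-0.75), Cd274 (-0.74), Dusp1 (-0.63), Sdc4 (-0.55), Tlr9 (-0.55), C3ar1 (-0.50), Il1rn (-0.50), Ier3 (-0.48), Psmb10 (-0.34) and Tbk1 (-0.28). Cxcl1 and Flt4 had few counts in some groups, so their fitted values depend on the prior count and are no measure of size. The calls of Cxcl10, Il1b, Flt4, P3h4, Iigp1, Tlr9, Slamf8 and Ier3 were lost when some single libraries were left out, P3h4 also lost it with DESeq2 and without the filter on low counts, and Cxcl10 when the fit was limited to the groups compared (adjusted p = 0.0596).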

How the results depend on the processing

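Under tau 1014 genes were lower and 407 higher, and these counts were 1106 and 394 with DESeq2's Wald test, 1032 and 389 with RLE scaling, 1091 and 451 without the filter on low counts, and 886 and 374 when the fit was limited to the groups compared. Without a minimum fold change they were 3580 and 3442 under tau and 3737 and 3373 with vehicle. With each of the 12 tau and vehicle libraries left out in turn, 962 to 1061 genes were lower and 389 to 430 higher under tau, 949 to 1049 lower and 335 to 398 higher with vehicle, and the interaction was negative in 267 to 525 and positive in 318 to 606 genes. The lowest interaction counts came without WT tau replicate 3 (267 negative, 322 positive) and without WT tau replicate 1 (318 positive), and the cause was not tested. Deviations of libraries with the same replicate number correlated at -0.133 to 0.209 over all groups and at -0.0603 to 0.0091 between the tau groups. Between vehicle and tau the same-number correlations were 0.0442 to 0.209 in WT and 0.0448 to 0.0918 in Cgas-/- cells. Those of unlike numbers were -0.171 to 0.135 in WT and -0.0634 to 0.00341 in Cgas-/- cells. Whether the numbers pair libraries within a genotype is thus not known. With the replicate number as a block 1007 genes were lower and 403 higher under tau, of which 1001 and 400 were called without it.

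Among named genes only ones that were not called changed direction. Without single libraries Cxcl3 ranged from -0.17 to 0.014, Cxcl1 from -0.33 to 0.17, Socs3 from -0.076 to 0.18 and Gbp8 from -0.35 to 0.16. Ifi35, Ifnb1, Marco and Cd74 lost their call without some single library, Ifnb1 also with DESeq2 (adjusted p = 0.067), and Slfn2, Cxcl2 and Il6 gained one under some settings. Depth limits what can be said of Ifnb1, Cxcl9, Cxcl11, Il6 and Flt4, which had few counts.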
